A study of Mus musculus with 15 samples.

Results

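The comparison of endovascular progenitors (EVP) with transit amplifying (TA) cells covered 10 of the 15 RNA sequencing libraries, 5 of each population, and 25549 of the 53465 genes in the table of normalized counts, those with a mean of at least 5 over all 15 libraries. Cells came from B16-F0 tumors, grown from a mouse melanoma line and collected on day 15 in mice that carry GFP under the ubiquitous CAG promoter, so GFP marks host cells of any type. After depletion of lineage positive cells, GFP+ Lin-CD34+ cells were sorted as EVP (CD31lo VEGFR2lo), TA (CD31int VEGFR2lo) or differentiated cells (D, CD31hi VEGFR2hi). No source ties a replicate number to an animal or tumor, so p-values measure the spread between these samples. Values are normalized counts (each library's gene counts over its DESeq2 size factor), and differences are on log2(normalized count + 1), TA minus EVP.

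Endothelial cells line vessels, are joined by VE-cadherin and claudins, and read VEGF through receptors such as VEGFR2. During sprouting, tip cells lead and stalk cells follow under Notch signalling. Cells of mesenchymal character instead make interstitial collagens, matrix proteases, complement and cytokines, and in a hierarchy of cells, transit amplifying describes progeny that divide between a progenitor and a differentiated cell.

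Between 5394356 reads (EVP replicate 1) and 24425865 reads (TA replicate 5) were counted per library, and 100% of values were whole multiples of the value of 1 read. Replicate 1 stood apart in both populations, since the predicted gene Gm10800 took 10.6% of the reads in EVP replicate 1 and 8.69% in TA replicate 1, against at most 0.70% in the other 8 libraries. In D replicate 1 the share was 8.495%. Counts are therefore also given with replicate 1 left out of EVP, TA and D. Olfactory receptor genes, which are expressed mainly in the nose, set further libraries apart. At least 1 read fell on 96.2%, 55.4%, 13.6%, 4.55% and 4.27% of these 1406 genes in EVP and on 75.9%, 51.7%, 65.2%, 4.12% and 3.70% in TA replicates 1 to 5, so EVP replicate 2 and TA replicates 2 and 3 also stood apart. The Gm10800 share followed a similar order, at 0.205% in EVP replicate 2, 0.274% in TA replicate 2 and 0.701% in TA replicate 3. It was 0.0113% in EVP replicate 3 and at most 0.000336% in replicates 4 and 5 of both populations. What the 2 measures share was not tested. The number of genes with at least 1 read did not separate the populations (EVP 23704 to 39556, TA 24273 to 33229, exact permutation test over all 252 divisions, two-sided p = 0.952, adjusted over 5 measures 0.952).

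In limma 893 genes (3.5%) differed at an adjusted p under 0.05, of which 495 (1.94%) rose in TA and 398 (1.56%) were higher in EVP. The median log2 difference was 2.18 among the genes that rose in TA and 1.48 in size among those higher in EVP, and it was -0.09 over all tested genes. For 1097 genes (4.29%) the 5 TA and 5 EVP values did not overlap, and 547 of these were called. With replicate 1 left out, 104 genes (0.407%) were called, 59 (0.231%) higher in TA and 45 (0.176%) higher in EVP, and 89 of the 104 were among the 893. All 893 kept their direction in that fit, which shares 12 of the 15 libraries with the full one. Over all 25549 tested genes, 3962 had an unadjusted limma p under 0.05 on all libraries and 3933 without replicate 1. Counts of list members at that threshold below are to be read beside these. The number called also moved with the test, to 663 in edgeR (2.6%), 1919 in DESeq2 (7.51%) and 382 in limma without a mean-variance trend (1.5%), and with scaling to the same total (714 higher in TA, 237 higher in EVP). Leaving out single libraries moved it to 429 without EVP replicate 2, 472 without EVP replicate 3 and 560 without TA replicate 3, and to 1214 (4.75%) without TA replicate 5. With every library above 50% for olfactory receptor genes left out, 3 EVP, 2 TA and 4 D libraries remained and 22 genes (0.0861%) were called, 3 of them among the 893. All 893 kept their direction there and 586 had an unadjusted p under 0.05, as did 2492 of all 25549 tested genes. The libraries that remained are part of the 15 that gave the 893, so direction and low p largely carry over. The 22 calls rest on 2 TA libraries.

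The 893 genes were called on these same libraries, so high agreement in direction within a replicate number is largely built in. Within replicate numbers 1 to 4, between 99.6% and 100% of them moved in the fitted direction from EVP to TA. Within number 5 the share was 87.2%. TA replicate 5 thus held the values that overlapped EVP for many of the genes below.

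Genes that define endothelium were far higher in TA. Of 18 endothelial identity genes 15 rose and none fell, with a median log2 difference of 4.13 against -0.09 over all tested genes. The mean level of the list on the log2 scale was 7.17, 5.45, 6.04, 7.65 and 8.30 in EVP replicates 1 to 5 and 12.25, 10.27, 11.07, 10.92 and 8.06 in TA replicates 1 to 5. TA replicate 5 lay below EVP replicate 5 and the other 4 TA libraries lay above every EVP library. With replicate 1 left out the median was 3.63 and 1 member, Flt1, was called, while 16 had an unadjusted p under 0.05 in the same direction. Without the libraries high in olfactory receptor genes the median was 2.36, 17 of 18 differences were positive and none was called. In that fit 5 members had an unadjusted p under 0.05, against 2492 of all 25549 tested genes. In bulk samples, fewer cells of a type and less RNA per cell cannot be told apart.

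Pecam1 encodes CD31, whose protein level set the gates. Its normalized counts were 225, 125, 119, 217 and 613 in EVP and 15414, 3137, 7783, 4502 and 372 in TA (log2 difference 4.08 ± 0.70 (SE), limma adjusted p = 0.0046). Kdr encodes VEGFR2, which was low in both gates. Kdr read 565, 94.1, 150.5, 712 and 538 in EVP and 9699, 2042, 4425, 4424 and 408 in TA (log2 difference 3.13 ± 0.68 (SE), limma adjusted p = 0.0166), and the call was lost without EVP replicate 2 or EVP replicate 3. In both genes TA replicate 5 fell within the EVP range. Cdh5, which encodes VE-cadherin, counted 49.2, 18.3, 22.1, 89.5 and 182 in EVP and 7680.3, 1784, 2357, 1942 and 138 in TA (log2 difference 4.90 ± 0.79 (SE), limma adjusted p = 0.0034). Flt1, which encodes VEGFR1, measured 439, 201, 118, 604 and 1451 in EVP and 16741, 5139.9, 11629, 7538 and 2752 in TA (log2 difference 4.22 ± 0.55 (SE), limma adjusted p = 0.0012), with no overlap and an adjusted p of 0.0445 without replicate 1. Tek, which encodes the angiopoietin receptor TIE2, was the member with a negative difference (-1.49, adjusted p = 0.066) and was not called by limma. Tek was higher in EVP within every replicate number, with an unadjusted limma p of 0.00276, and DESeq2 called it higher in EVP (adjusted p = 0.0112).

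**Figure D1:**
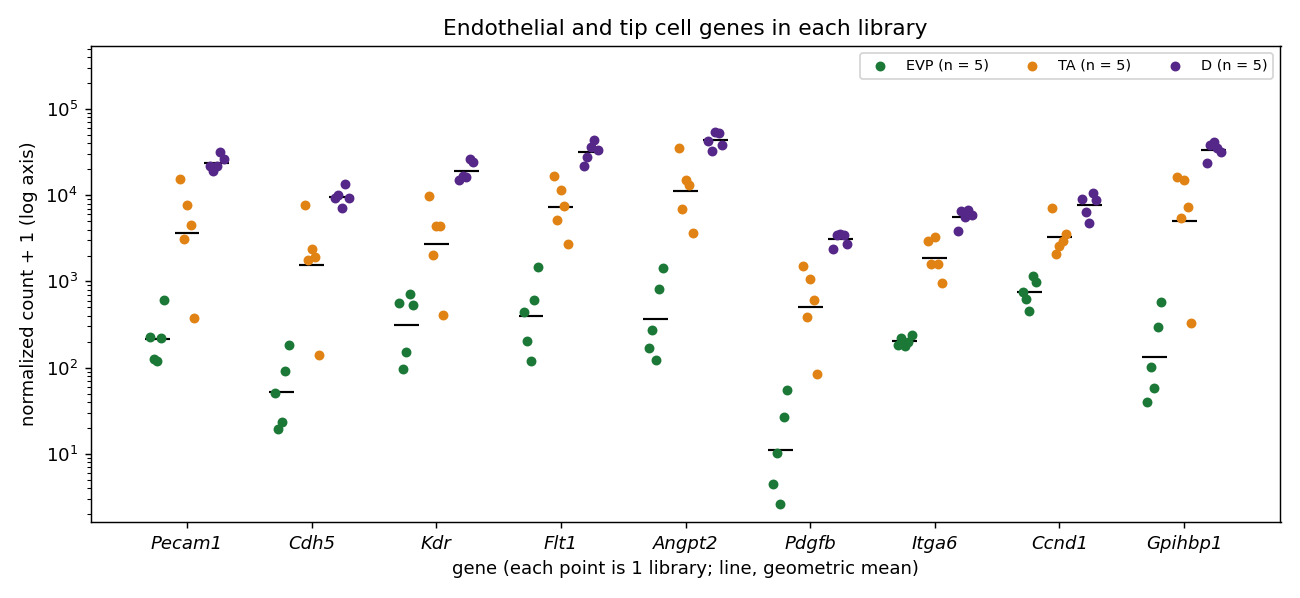
Normalized count + 1 on a log axis for 9 genes in each of the 5 EVP (green), 5 TA (orange) and 5 D (purple) libraries, with black lines at geometric means. Flt1, Angpt2, Pdgfb, Itga6 and Ccnd1 do not overlap between EVP and TA, whereas 1 TA library, replicate 5, lies in the EVP range for Pecam1, Cdh5, Kdr and Gpihbp1.

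Of 22 endothelial transcription factors, 13 rose in TA and 1, Klf4, fell (median 2.33, without replicate 1 1.75 with 1 member called). Sox7, a SoxF factor of endothelial specification, was 0, 0, 0, 50.4 and 41.5 in EVP and 1792, 489, 815, 567 and 28.6 in TA (log2 difference 6.47 ± 1.18 (SE), limma adjusted p = 0.0061). The other SoxF factors Sox17 (4.68, adjusted p = 0.00689) and Sox18 (4.44, adjusted p = 0.0131) rose as well in limma. Epas1, the hypoxia-inducible factor HIF-2alpha and the member called without replicate 1, was chosen after its values were seen. It counted 372, 498, 253, 695 and 485 in EVP and 3513, 2145, 2429.8, 1897 and 2757 in TA (log2 difference 2.51 ± 0.25 (SE), limma adjusted p = 9.93e-05, 0.0149 without replicate 1). The 5 TA values lay between 1897 and 3513, all above the EVP libraries, and TA replicate 5 was not low.

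Sprouting and tip cell genes moved alongside, with 13 of 18 higher in TA and none lower (median 3.11, without replicate 1 2.89 with 1 member called). Angpt2 (chr8:18690263-18741562 in GRCm38), the angiopoietin that loosens vessels for sprouting, was 168, 273, 123, 823 and 1433 in EVP and 35065, 6889, 15104, 12995 and 3650.4 in TA (log2 difference 4.92 ± 0.61 (SE), limma adjusted p = 0.000781, 0.041 without replicate 1). Every TA library was above every EVP library. Pdgfb (chr15:79995900-80014808), through which tip cells recruit pericytes, had the largest rise among called genes without overlap. Its counts were 3.51, 9.14, 1.64, 25.6 and 53.2 in EVP and 1508, 385, 1058, 614 and 82.8 in TA (log2 difference 5.49 ± 0.77 (SE), limma adjusted p = 0.00168, 0.0562 without replicate 1). Dll4, the Notch ligand of tip cells, reached 4623, 1109, 1978, 1952 and 136 in TA against 14, 10.4, 15.5, 123 and 219.9 in EVP (log2 difference 5.01 ± 0.87 (SE), limma adjusted p = 0.00477). For Dll4, TA replicate 5 lay below EVP replicate 5.

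The other genes with the 10 largest rises among calls without overlap were Pcdh12 (5.23), an endothelial protocadherin, Mmp15 (5.21), a membrane-bound metalloprotease, Scarf1 (4.78), a scavenger receptor, Esam (4.61) and Icam2 (4.35), endothelial adhesion molecules, Kcnq1 (4.29), a potassium channel, Tmem252 (4.55) and Sh2d5 (4.34). Their limma adjusted p lay between 0.00148 (Esam) and 0.00849 (Sh2d5). Without replicate 1, Scarf1 (0.0407) and Kcnq1 (0.0484) remained below 0.05.

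Receptors and ligands of vessel growth showed a divided picture. Of 15 VEGF and angiopoietin genes 6 rose in TA (Flt1, Kdr, Flt4, Nrp2, Angpt2 and Tie1) and none fell, with a median of 0.47 (0.37 without replicate 1). Nrp2, a co-receptor for VEGF, was 386, 208, 279, 402 and 465 in EVP and 2167, 1104, 1796, 936 and 732 in TA (log2 difference 1.89 ± 0.28 (SE), limma adjusted p = 0.0024, 0.0445 without replicate 1). Vegfa itself was not called (-1.13, limma adjusted p = 0.261, unadjusted 0.0331), although its values did not overlap. They were 298, 185.5, 389, 226 and 338 in EVP and 114, 146, 161, 93.2 and 129 in TA. Flt1, Nrp2 and Angpt2 were the 3 members called without replicate 1. The lists share members, and these 3 are also the calls without replicate 1 of other lists. Flt1 is that of endothelial identity, Angpt2 that of tip cells and Nrp2 that of venous genes.

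In the Notch pathway 8 of 19 genes rose and none fell (median 1.54, without replicate 1 1.34 with 1 member called). They were the receptors Notch1 and Notch4, the ligands Dll1, Dll4 and Jag2, the glycosyltransferase Mfng, and the targets Hey1 and Nrarp. Notch1, Notch4, Dll4, Jag2 and Hey1 are counted again among the arterial genes below. Nrarp, a feedback inhibitor of Notch, was 3.51, 0, 4.09, 3.20 and 5.53 in EVP and 93.1, 109.9, 38, 176 and 24.3 in TA (log2 difference 4.29 ± 0.62 (SE), limma adjusted p = 0.00194, 0.0445 without replicate 1). The EVP values lay between 0 and 5.53, and all TA values were above them. Arterial genes rose in 8 of 13 (median 2.53) and venous genes in 2 of 6 (median 0.44). Without replicate 1 no arterial gene was called by limma and 9 had an unadjusted p under 0.05 in the direction of TA. On all libraries edgeR called 5 arterial genes and DESeq2 9.

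Of 16 endothelial junction genes 8 rose and none fell (median 1.54). Without replicate 1 the median of the junction genes was 1.26 and none was called, with 11 at an unadjusted p under 0.05. Of 18 G protein-coupled receptors of endothelium 9 rose and 1, Ackr3, fell (median 2.31, without replicate 1 2.00 with 3 members called). Gpr4, a proton-sensing receptor, counted 52.7, 13.1, 42.5, 116 and 135 in EVP and 2815, 943, 500.0, 826 and 380.5 in TA (log2 difference 3.92 ± 0.55 (SE), limma adjusted p = 0.00169, 0.0469 without replicate 1). Adgrf5, an adhesion receptor of endothelium, and Adora2a, an adenosine receptor, were the other 2 and were chosen after their values were seen (3.74 and 2.24, adjusted p without replicate 1 0.014 and 0.0407). Ackr3, a scavenging receptor for CXCL12, was 7373, 13528, 11363, 12929 and 5991 in EVP and 2868, 4369, 3788, 3157 and 2323 in TA (log2 difference -1.59 ± 0.28 (SE), limma adjusted p = 0.00481), with no overlap.

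Lipid handling genes rose in 7 of 13 and fell in none (median 1.202, without replicate 1 1.28 with 1 member called). Gpihbp1, which anchors lipoprotein lipase on capillaries, was 38.6, 102, 57.3, 296 and 577 in EVP and 16515, 5498, 15181, 7282 and 326 in TA (log2 difference 5.25 ± 0.88 (SE), limma adjusted p = 0.00399). Cd36, a fatty acid transporter, went from 414, 290.0, 735, 1001 and 856 in EVP to 7525, 2558, 7489, 8894 and 1062 in TA (log2 difference 2.83 ± 0.51 (SE), limma adjusted p = 0.00552). Pparg, the nuclear receptor that controls several of these genes, read 105, 122, 81.8, 195 and 89.2 in EVP and 529, 280.4, 360.5, 447 and 254 in TA (log2 difference 1.67 ± 0.27 (SE), limma adjusted p = 0.00327, 0.0484 without replicate 1). Cd36 and Pparg did not overlap, and for Gpihbp1 TA replicate 5 lay within the EVP range.

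The integrin Itga6, a laminin receptor, had one of the tightest separations. Its counts were 183, 218, 178, 198 and 236 in EVP and 2969.7, 1602, 3266, 1607 and 953 in TA (log2 difference 3.22 ± 0.28 (SE), limma adjusted p = 2.24e-05, 0.00797 without replicate 1). In all 15 fits that left out 1 library it stayed called. It was also called without the libraries high in olfactory receptor genes. Of 17 integrins 2 rose (Itga6 and Itga3), and Itga6 was the 1 called without replicate 1. Of 27 axon guidance genes 7 rose and none fell, among them Plxnd1 (2.87, adjusted p = 0.00399), a semaphorin receptor, and Epha2 (2.78, adjusted p = 0.00453), an ephrin receptor. Without replicate 1 none of the axon guidance genes was called, with 9 at an unadjusted p under 0.05 toward TA and 1 toward EVP.

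**Figure D2:**
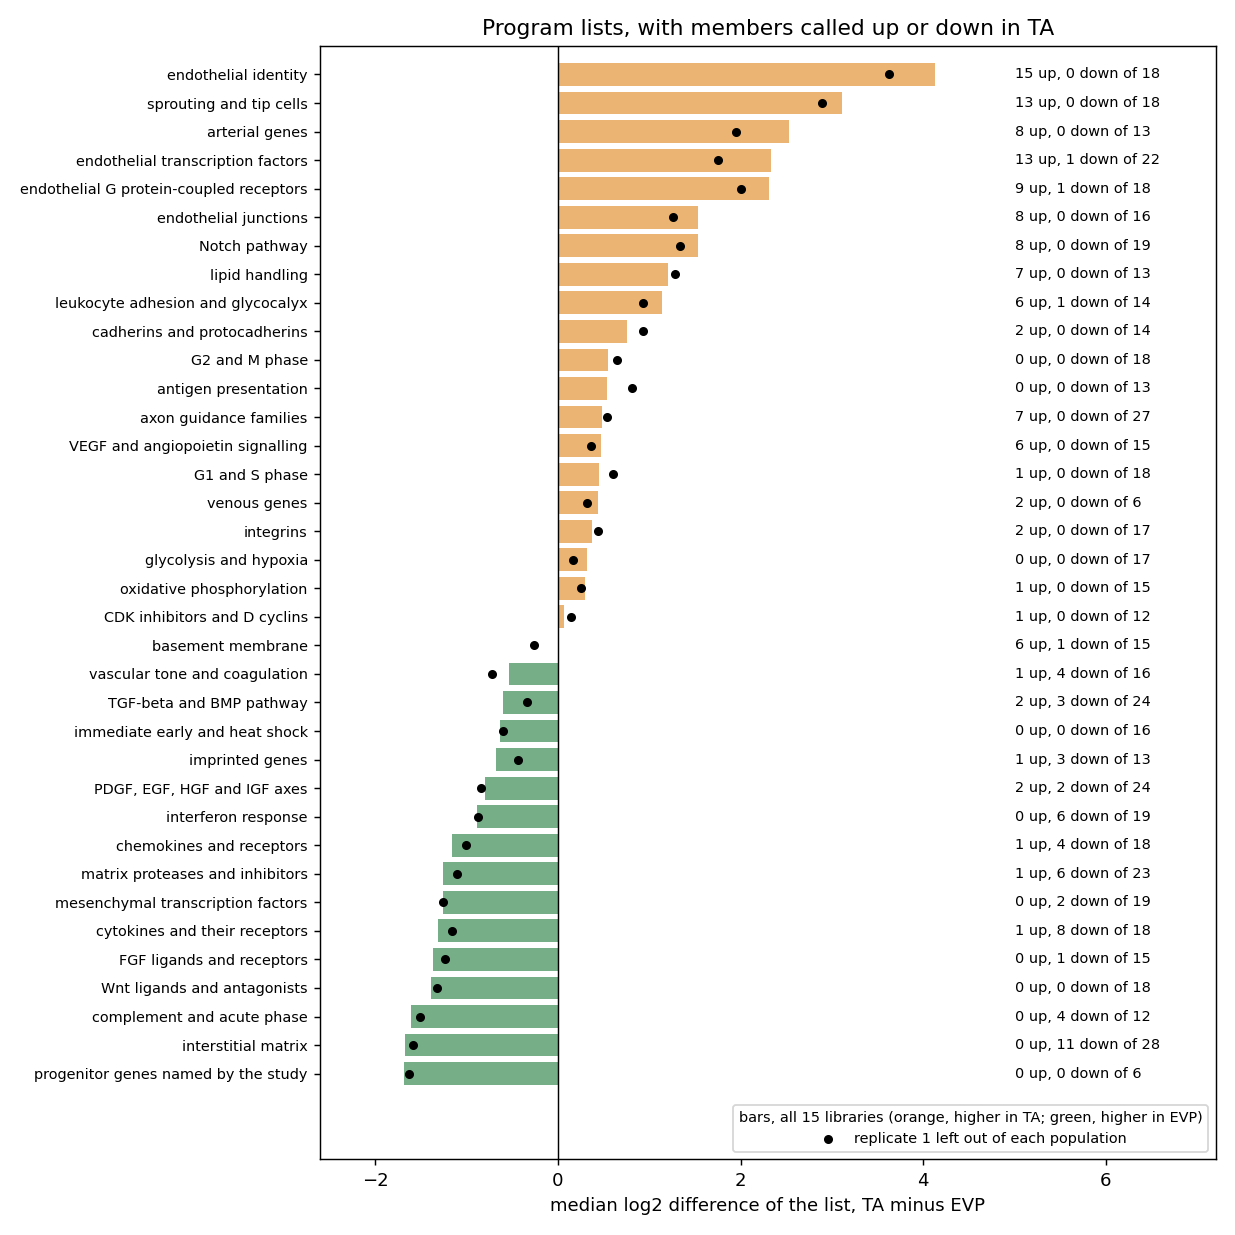
Median log2 difference (TA minus EVP) of each of 36 program lists over all 15 libraries (bars) and with replicate 1 left out of each population (black points), with the members called up or down in TA of those tested. Endothelial lists lead with 15 of 18 and 13 of 18 members up, and the interstitial matrix list has 11 of 28 members down.

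Genes of interstitial matrix were higher in EVP. All 28 members had a negative difference, 11 were called and none rose (median -1.67). Without replicate 1 the median was -1.58, all 28 remained negative, none was called by limma and 16 had an unadjusted p under 0.05. On all libraries edgeR called 8 and limma without a trend 4, and without TA replicate 5 limma called 17. Without the libraries high in olfactory receptor genes the median was -1.46, all 28 were negative, none was called and 7 had an unadjusted p under 0.05. The mean level of the list was 13.78, 14.50, 14.06, 14.40 and 14.04 in EVP and 11.83, 12.95, 12.08, 12.37 and 13.38 in TA, so the populations did not overlap, and the D libraries averaged 6.61.

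Dcn, which encodes the proteoglycan decorin, was 89543, 199192, 99854, 181354 and 75072 in EVP and 18834, 63916, 23502, 36676 and 30400.5 in TA (log2 difference -1.92 ± 0.39 (SE), limma adjusted p = 0.0107). Prelp, a related small leucine-rich proteoglycan, counted 8788, 13767, 7638, 16569.7 and 6045 in EVP and 1696, 3934, 2352, 3462 and 2713 in TA (log2 difference -1.86 ± 0.30 (SE), limma adjusted p = 0.00353). Neither overlapped, and both stayed called whichever single library was left out. Bmp1, the protease that trims procollagens, was 5944, 9299, 7401, 7484 and 6836 in EVP and 2039, 2102, 1750.1, 2237 and 4028 in TA (log2 difference -1.66 ± 0.23 (SE), limma adjusted p = 0.00168, 0.0323 without replicate 1). Every EVP library was above every TA library. TA replicate 5 had the highest TA value of Bmp1. Of 23 matrix proteases and inhibitors 6 were higher in EVP and 1, Mmp15, in TA, and without replicate 1 none was called, with 8 and 2 at an unadjusted p under 0.05. Adamts5, an aggrecanase, was 8985, 17363, 8419, 12549.6 and 5510.2 in EVP and 1594, 4420.0, 1993, 2507 and 3068 in TA (log2 difference -1.94 ± 0.37 (SE), limma adjusted p = 0.00751).

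Basement membrane genes divided differently, with 6 of 15 higher in TA (Col4a1, Col4a2, Col18a1, Lama5, Nid2 and Sparcl1) and 1, Lamb2, higher in EVP, around a median of 0.01. Without replicate 1 the median was -0.26 and none was called, with 6 at an unadjusted p under 0.05 toward TA and 2 toward EVP. Lama5, a laminin chain of vessels, was 63.2, 40.5, 26.2, 161 and 47 in EVP and 448, 585, 343, 446 and 109.6 in TA (log2 difference 2.59 ± 0.46 (SE), limma adjusted p = 0.00537). Its TA replicate 5 lay below EVP replicate 4.

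**Figure D3:**
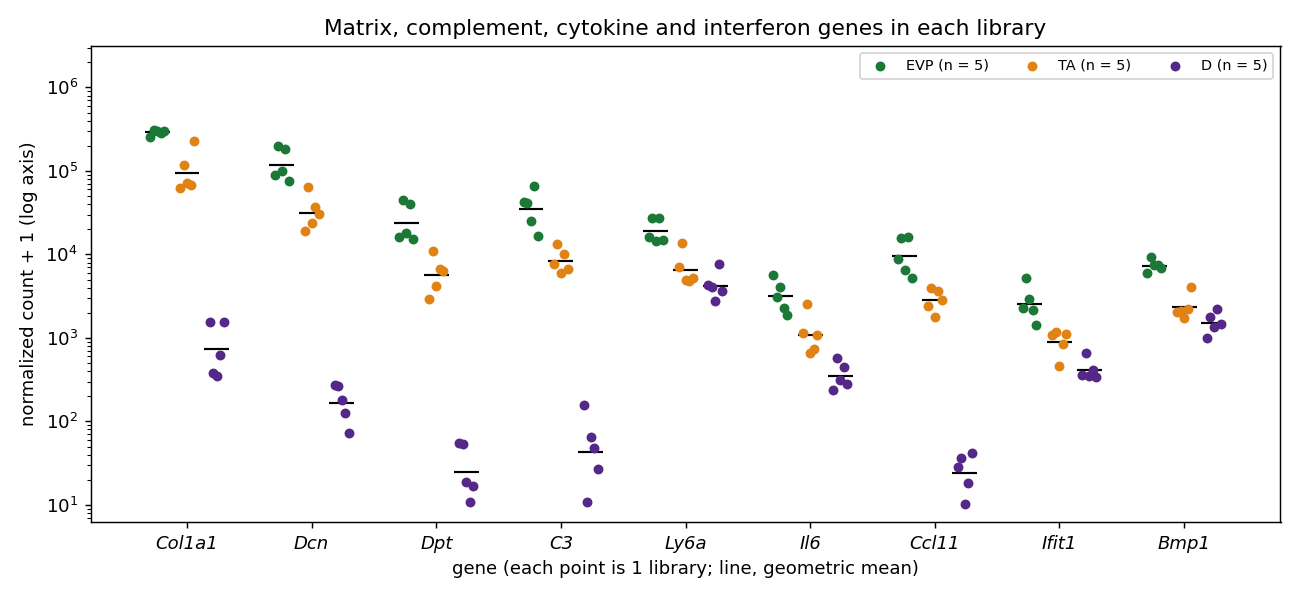
Normalized count + 1 on a log axis for 9 genes of matrix, complement, cytokine, chemokine and interferon lists and Ly6a in the 5 EVP (green), 5 TA (orange) and 5 D (purple) libraries, with lines at geometric means. Dcn, Bmp1 and Ly6a are lower in all 5 TA libraries than in any EVP library, and Il6 overlaps.

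Ly6a, which encodes the stem cell antigen SCA-1, was 16144, 27271, 14403, 27212 and 15040.5 in EVP and 7087, 13692, 4884, 4793 and 5279 in TA (log2 difference -1.55 ± 0.31 (SE), limma adjusted p = 0.00949), with no overlap and an adjusted p of 0.0866 without replicate 1. Cd34, whose protein both gates required, was not called (-0.83, adjusted p = 0.248). None of the 6 progenitor genes that the study names passed limma or edgeR (median -1.69), 3 had an unadjusted p under 0.05 and DESeq2 called 2, all higher in EVP. Without replicate 1 the median was -1.63 and 2 had an unadjusted p under 0.05. That list was chosen by the study on these samples.

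Cytokines and their receptors were higher in EVP in 8 of 18 and rose in 1, Csf2rb (median -1.31). Osmr, the oncostatin M receptor and the member called without replicate 1, was chosen after its values were seen. It counted 3206, 3305, 4045, 3311 and 3433 in EVP and 905, 1770.5, 1429.7, 1172 and 2411 in TA (log2 difference -1.25 ± 0.22 (SE), limma adjusted p = 0.00552, 0.0445 without replicate 1). Il11ra1, the interleukin 11 receptor, was 6748, 11355, 6456, 11637 and 3879.8 in EVP and 1806, 3999, 1557, 2752 and 2152 in TA (log2 difference -1.68 ± 0.28 (SE), limma adjusted p = 0.00443). Osmr did not overlap, and Il11ra1 overlapped by 1 pair, EVP replicate 5 below TA replicate 2. Of 18 chemokine genes 4 were higher in EVP (Ccl2, Ccl7, Ccl11 and Ackr3) and 1, Cxcr4, in TA, and without replicate 1 none was called, with 9 and 1 at an unadjusted p under 0.05. Of 12 complement and acute phase genes 4 were higher in EVP (C3, C1ra, C1s1 and Serping1) and none in TA (median -1.61), and without replicate 1 none was called, with 7 at an unadjusted p under 0.05, all higher in EVP. C1s1, the protease of the first complement step, read 7566, 17553, 8858, 17940.4 and 6501 in EVP and 1522, 5862, 2416, 3438 and 4356 in TA (log2 difference -1.75 ± 0.34 (SE), limma adjusted p = 0.00901), without overlap.

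Of 19 interferon response genes 6 were higher in EVP (Ifit1, Ifit3, Oasl2, Irf7, Stat2 and Usp18) and none in TA, with a median of -0.89 and, without replicate 1, -0.87 with 1 called. Ifit1, an RNA-binding antiviral protein, was 2261, 5262, 2935, 2148 and 1442 in EVP and 1086, 1172, 465, 850.1 and 1111 in TA (log2 difference -1.52 ± 0.32 (SE), limma adjusted p = 0.0144), with no overlap. Usp18, which removes ISG15 and was chosen after its values were seen, was 1503, 2038, 1905, 1696 and 1129.8 in EVP and 1276, 777, 775, 856 and 783 in TA (log2 difference -0.89 ± 0.20 (SE), limma adjusted p = 0.019, 0.0445 without replicate 1). Its call on all libraries was lost without EVP replicate 2 or EVP replicate 3. Antigen presentation genes, many of which interferon also induces, were not called in either direction by limma, edgeR or DESeq2, and 1 of 13 had an unadjusted p under 0.05.

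Promoter windows from RefSeq (250 bases before to 50 after a start, GRCm38.p6) were searched on both strands for 5 motifs as a description. The interferon-stimulated element was searched as GAAA followed by any 2 bases and GAAA. It occurred in 23 of 277 genes higher in EVP that had a window (8.3%), 6 of 361 genes higher in TA (1.66%) and 622 of 15136 tested genes (4.11%). Of the 14 interferon response genes with a window, 7 held it. The 3 promoters below belong to genes called higher in EVP, with the element in capitals on the strand shown or its complement, and the Kdr promoter holds the 1 match of the RBPJ motif GTGGGAA in capitals.
Ifit1, chr19:34640639-34640938 (+ strand): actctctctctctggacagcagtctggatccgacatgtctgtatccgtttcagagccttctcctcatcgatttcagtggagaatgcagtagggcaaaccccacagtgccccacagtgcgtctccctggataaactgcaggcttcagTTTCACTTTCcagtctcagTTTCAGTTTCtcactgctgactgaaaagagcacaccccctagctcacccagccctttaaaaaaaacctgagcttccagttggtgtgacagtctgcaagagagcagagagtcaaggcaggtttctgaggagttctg
Ifit3, chr19:34583279-34583578 (+ strand): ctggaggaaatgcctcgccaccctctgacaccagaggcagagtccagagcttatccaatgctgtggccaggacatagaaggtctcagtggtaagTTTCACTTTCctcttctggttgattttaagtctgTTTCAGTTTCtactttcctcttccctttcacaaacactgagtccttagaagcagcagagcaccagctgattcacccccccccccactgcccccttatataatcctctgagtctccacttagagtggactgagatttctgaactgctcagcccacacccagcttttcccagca
Stat2, chr10:128270248-128270547 (+ strand): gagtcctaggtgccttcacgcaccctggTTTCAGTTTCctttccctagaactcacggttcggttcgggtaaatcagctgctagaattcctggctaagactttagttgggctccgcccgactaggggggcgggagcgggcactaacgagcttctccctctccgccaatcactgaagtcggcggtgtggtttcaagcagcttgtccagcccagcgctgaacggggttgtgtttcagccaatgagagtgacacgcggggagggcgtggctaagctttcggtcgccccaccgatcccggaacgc
Kdr, chr5:75978406-75978705 (- strand): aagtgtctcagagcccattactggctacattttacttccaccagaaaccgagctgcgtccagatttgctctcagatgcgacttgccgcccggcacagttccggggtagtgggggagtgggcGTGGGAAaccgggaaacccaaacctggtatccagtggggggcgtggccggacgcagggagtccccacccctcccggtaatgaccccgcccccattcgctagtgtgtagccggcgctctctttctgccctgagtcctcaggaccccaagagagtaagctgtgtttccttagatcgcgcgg

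The RBPJ motif occurred in 26 of 361 genes higher in TA (7.2%) and in 7.28% of tested genes. The ETS motif CCGGAAG occurred in 10.5% of genes higher in TA against 14.7% of tested genes, the SOX motif ACAATG in 8.31% against 11.1%, and the GATA motif AGATAAG in 4.16% against 2.94%. These shares describe letters in the window and say nothing of binding.

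The cell cycle lists had smaller medians than the endothelial identity list. Of 18 G1 and S phase genes 1, Mcm6, rose in TA in limma and in edgeR (median 0.45), with 7 at an unadjusted p under 0.05 and 5 called by DESeq2, all higher in TA. None of 18 G2 and M phase genes was called by limma or edgeR, with 8 at an unadjusted p under 0.05, all higher in TA, and 1 called by DESeq2 (median 0.55). Without replicate 1 the medians were 0.60 and 0.65, with all 18 members of each list positive, none called, and 7 and 6 at an unadjusted p under 0.05. Mki67, the proliferation marker, was 1868, 1167, 1912, 694 and 1054 in EVP and 746, 1552, 800.3, 1663 and 1869 in TA (log2 difference -0.02 ± 0.30 (SE), limma adjusted p = 0.999), and the populations overlapped. Ccnd1, which encodes cyclin D1, was 748, 617, 455, 1144 and 991 in EVP and 7124, 2095, 2555, 2931 and 3550.1 in TA (log2 difference 2.14 ± 0.32 (SE), limma adjusted p = 0.0022, 0.0445 without replicate 1), and every TA library exceeded every EVP library. Of 12 D cyclins and CDK inhibitors Ccnd1 was the 1 called.

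Glycolysis and hypoxia genes were not called in either direction by limma or edgeR (17 genes, median 0.31, 2 at an unadjusted p under 0.05, 1 called by DESeq2). Without replicate 1 their median was 0.17, none was called and 1 had an unadjusted p under 0.05. All 15 oxidative phosphorylation genes had a positive difference (median 0.30) and 1, Cycs, rose in limma, with 7 at an unadjusted p under 0.05, 2 called by edgeR and 4 by DESeq2. Without replicate 1 none of these was called and 3 had an unadjusted p under 0.05, against 3933 of all 25549 tested genes. None of 18 Wnt ligands and antagonists passed limma or edgeR (median -1.39), with 5 at an unadjusted p under 0.05, all higher in EVP. DESeq2 called 2 of them higher in EVP. In the TGF-beta and BMP pathway 2 of 24 rose (Eng and Id1) and 3 were higher in EVP (Tgfbr2, Tgfbr3 and Bmp1), of which Bmp1 was called without replicate 1. Id1, a target of BMP signalling, was 151, 165, 115, 245 and 204 in EVP and 2658, 1821, 1442, 888 and 248 in TA (log2 difference 2.67 ± 0.46 (SE), limma adjusted p = 0.00477), with no overlap.

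The 10 largest falls among calls without overlap were led by noncoding and predicted genes. They were Gm7001, AC108802.1, Ptgs2os, 2310081O03Rik, Miat, Gm26771, Gm37644, Efhd1, AC144942.1 and Gm43289. Efhd1, a calcium-binding mitochondrial protein, was the 1 protein coding gene among them. Of these 10, edgeR called only 2310081O03Rik (adjusted p = 0.0403), Miat (0.0467) and Efhd1 (0.0394). At most 3 reads were counted in all 5 TA libraries for 2310081O03Rik and AC144942.1, and in 4 of 5 for AC108802.1 and Gm26771. The TA and D means of these genes were at most 1.956, so they passed the minimum mean of 5 only through EVP. Their separation and rank are thus partly built into that filter. The call of Gm43289 held in 6 of the 15 fits without 1 library. Miat (chr5:112213228-112229395), a long noncoding RNA, counted 137, 186, 259, 27.2 and 185 in EVP and 8.62, 7.91, 1.12, 12.5 and 18.1 in TA (log2 difference -3.90 ± 0.78 (SE), limma adjusted p = 0.0105, 0.0645 without replicate 1). Efhd1 was 625, 661, 539.9, 1349.9 and 352 in EVP and 56.9, 5.27, 40.2, 192 and 83.4 in TA (log2 difference -3.75 ± 0.80 (SE), limma adjusted p = 0.0142). Of 4935 long noncoding genes tested, 37 (0.75%) were called higher in EVP and 8 (0.162%) higher in TA, against 359 (2.05%) and 483 (2.76%) of 17514 protein coding genes. Without replicate 1 the long noncoding calls were 7 and 1. Reads on long noncoding genes made up 3.74% of EVP replicate 1 and between 0.69% and 1.52% of the other 9 libraries.

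Among the 104 genes called without replicate 1, the following were chosen after their values were seen. Higher in TA were Apold1 (3.03), an early response gene of endothelium, Nes (3.56), the intermediate filament nestin, Sncg (3.70), gamma-synuclein, and Mecom (2.28), a zinc finger transcription factor. Higher in EVP were Gpx3 (-2.05), a secreted peroxidase, Fstl1 (-1.70), a secreted glycoprotein, Lrp1 (-1.68), an endocytic receptor, Aebp1 (-1.45) and Mxra8 (-1.29), matrix-associated proteins, and Ugdh (-1.85), which makes the precursor of hyaluronan. Ugdh counted 17969.7, 20001, 25533, 15083 and 11226 in EVP and 3454, 6484, 4006, 5079.5 and 5533 in TA (log2 difference -1.85 ± 0.23 (SE), limma adjusted p = 0.000781, 0.0323 without replicate 1), with no overlap.

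Marker lists of other cell types differed in how far they moved. Of 12 macrophage markers 8 rose in TA in limma (median 1.99) and 1 in edgeR, none was called without replicate 1 (9 at an unadjusted p under 0.05), DESeq2 called 9 on all libraries, and their summed normalized counts were 2736 to 14316 in EVP and 11217 to 53268 in TA. C1qc, a complement chain of macrophages, was 126, 213, 198, 397 and 919 in EVP and 881, 1135, 2227, 3704 and 1188 in TA (log2 difference 2.45 ± 0.52 (SE), limma adjusted p = 0.0147). All 7 mast cell markers had a positive difference (median 4.23), and an unadjusted p under 0.05, with 1 called by limma and edgeR (Kit) and 2 by DESeq2. Without replicate 1 none was called and 3 had an unadjusted p under 0.05. The mast cell markers summed to 324 to 16222 in EVP and 4678 to 101231 in TA. Kit, a receptor that both mast cells and some endothelial cells carry, was 116, 219.5, 252, 621 and 221 in EVP and 3413, 1646, 3009, 3013 and 439 in TA (log2 difference 2.92 ± 0.49 (SE), limma adjusted p = 0.00399). In D the mean of Kit was 2992, while the whole mast cell list summed to 2754 to 3761 there, so Kit made up most of it. The paper reports its Lin-CD34+ populations as negative for c-KIT, from antibody staining rather than RNA. Of 8 erythroid and platelet markers 5 had a positive and 3 a negative difference (median 0.09), the mean level of the list was 6.66 in EVP and 6.74 in TA, and 1, Pf4, was called, with none called without replicate 1. Pf4, which encodes the chemokine platelet factor 4, was 176, 101, 92.4, 215 and 498 in EVP and 758, 1549, 1059, 1031 and 617 in TA (log2 difference 2.42 ± 0.39 (SE), limma adjusted p = 0.00333), with no overlap. In EVP, Pf4 was highest in replicate 5, where the list had its lowest level (3.39). In TA both were lowest in replicate 5 (list level 2.42). The part of these cells in the results was not tested.

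Of 12 mural markers 2, the potassium channel subunits Kcnj8 and Abcc9, rose in TA (median 1.70), with sums of 7491 to 34875 in EVP and 6272 to 158506 in TA. Rgs5, a pericyte gene, was 519.6, 1629, 1796, 3438 and 7377 in EVP and 1029, 14465, 8292, 25309 and 85852 in TA and was not called (adjusted p = 0.139). TA replicate 5 had the highest Rgs5 and the lowest Pecam1 of the TA libraries. Of 8 melanoma markers 3 rose in limma (Pmel, Mlana and Dct) and 1 in edgeR, with sums of 31511 to 72184 in EVP and 73711 to 185839 in TA, although the sort kept GFP+ host cells. The 12 fibroblast markers were all lower in TA, with 2 called, and summed to 444131 to 692931 in EVP and 99249.5 to 303810.3 in TA. Without replicate 1 limma called none of the fibroblast or melanoma markers, with 6 and 8 at an unadjusted p under 0.05, and 1 mural marker, Higd1b. On all libraries DESeq2 called 6 fibroblast, 7 melanoma and 6 mural markers. Lymphocyte and adipocyte markers were not called by limma, edgeR or DESeq2, and none had an unadjusted p under 0.05. Schwann cell, keratinocyte and skeletal muscle markers were not called by limma or edgeR, with 3, 0 and 1 members at an unadjusted p under 0.05 and 1 of each list called by DESeq2. Of 6 lymphatic markers Flt4 rose and Pdpn, which fibroblasts also express, fell.

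**Figure D4:**
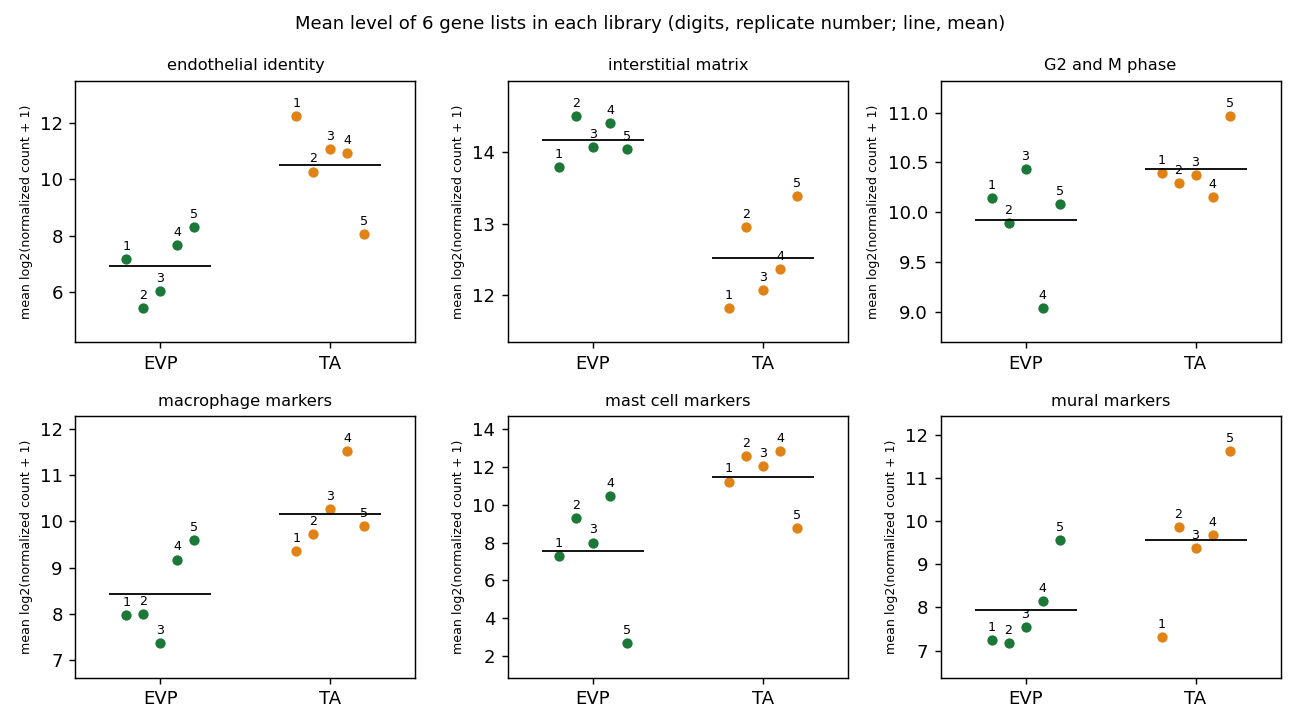
Mean log2(normalized count + 1) of 6 gene lists in each EVP (green) and TA (orange) library, with replicate numbers beside the points and a line at the mean. TA replicate 5 has the lowest TA level of endothelial identity (8.06) and the highest of mural markers (11.63), and TA replicate 4 has the highest level of macrophage markers (11.53).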

How the data were processed

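The authors sorted the cells, made libraries by a modified Smart-Seq2 method, mapped reads to GRCm38 (STAR 2.5.3a), counted them on genes with HTSeq-count and normalized them with DESeq2 1.10.1. The deposited values are signal values, gene counts that the authors divided by 1 size factor per library, and whole reads were recovered for 100% of them (tolerance 0.01). The authors' own comparisons (fold changes and p-values) were not used. Genes with a mean of at least 5 over 15 libraries were fitted on log2(value + 1) with limma 3.58.1 in R 4.3.3 (1 coefficient per population, trend, two-sided, Benjamini-Hochberg adjusted p under 0.05). On whole reads edgeR 4.0.16 called 663 genes and DESeq2 1.42.0 called 1919. Intervals were not formed, and a limit of 3 reads covers counting error only. Biotypes came from GENCODE M21, which matched 99.8% of genes. The tests were also run on simulated counts with the same spread for every gene. The simulated libraries differed only in depth and in planted changes, so that run does not cover the differences between libraries described above. Members and the 50 lists were chosen with earlier results of these data known, and some genes belong to several lists.

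The rule for named genes takes the 10 largest rises and falls among calls without overlap, Pecam1, Kdr, Cd34, Cdh5, Ly6a and Kit, up to 4 called and 2 uncalled members of each program list, and from marker lists the called and the first 2 members. From the 123 called genes under that rule, those given with values are mostly ones that stayed called without any single library, so their stability is not that of all calls. Alternatives were the pseudocount, the filter, scaling, array weights, 2 populations alone, the replicate block, edgeR, DESeq2 and left-out libraries. Fits without a trend, edgeR without replicate 1, and limma without libraries in which over 50% of olfactory receptor genes had a read, were added after seeing the data.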

Additional observations from a re-analysis of the deposited data

Results flagged for a closer look

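In 11 of 138 groups of 5 libraries, the highest or lowest library lay further from the rest than Dixon's 95% critical value allows, and chance flags about 1 in 20 groups. EVP replicate 1 accounted for 5 of them. It had 3.74% of its reads on long noncoding genes, 94.1% on protein coding genes and 10.6% on Gm10800, and its normalized counts were 4593 for Mxra8 and 0 for Sncg. TA replicate 1 had 8.69% of reads on Gm10800 and 1276 for Usp18. EVP replicate 4 had 27.2 for Miat and 77.5 for Epha2. EVP replicate 2 had 0 for Nrarp, and TA replicate 5 had 326 for Gpihbp1.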

How the results depend on the processing

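Of 123 called genes that the rule for names takes, none changed sign in any fit, 76 stayed called in all 15 fits that left out 1 library, 93 in edgeR, 81 with array weights, 70 in limma without a trend and 14 without replicate 1 of each population. The 893 called genes became 1919 in DESeq2, 382 in limma without a trend, 104 without replicate 1, 22 without the libraries in which over 50% of olfactory receptor genes had a read, and 32 and 312 when replicate 1 was left out of limma without a trend and of edgeR. Genes higher in TA (495) became 1071, 244, 59, 13, 14 and 220 in these fits, and 272 with only EVP and TA libraries. Genes higher in EVP (398) became 848, 138, 45, 9, 18 and 92, with 214 in edgeR, 237 with libraries scaled to the same total and 621 with a pseudocount of 8. Scaling to the same total gave 714 genes higher in TA, so the split moved toward TA, and the median difference of all genes moved from -0.09 to 0.07. Leaving out single libraries gave 429 (EVP replicate 2) to 1214 (TA replicate 5) calls. Among them 286 to 636 were higher in TA, and 143 to 578 higher in EVP, lowest without EVP replicate 2 (143), EVP replicate 3 (167), EVP replicate 4 (210), TA replicate 3 (229) and TA replicate 1 (235), while genes higher in TA fell to 286 without EVP replicate 2 and 305 without EVP replicate 3. Genes without overlap numbered 1097, and 2046 when 4 libraries of each population were compared, a weaker condition by construction. The difference of Mki67, -0.02 on all libraries, was 0.50 with array weights, 0.040 in edgeR, 0.16 with libraries scaled to the same total, 0.31 without replicate 1, and -0.23 to 0.17 over fits without 1 library. Elsewhere the cause was not tested.

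With the replicate number as a block 1262 genes were called, 639 higher in TA and 623 higher in EVP, and all 123 genes above stayed called. Deviations of EVP and TA libraries with the same number correlated at 0.60, 0.14, -0.14, 0.60 and 0.58 for numbers 1 to 5. Numbers 1, 2, 4 and 5 correlated best with their own in both directions, and number 3 did not. No source ties a number to an animal or tumor, so the main fit did not treat the numbers as pairs. What libraries of the same number share was not tested.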
